A study of Mus musculus with 4 samples.

Results

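The 9 genes described here mark B lymphocytes and the antibody-secreting plasma cells that derive from them: Jchain, Cd180, Cd79a, Cd79b, Ms4a1, Cd22, Ebf1, Pax5 and Bank1. They were chosen by name, with earlier results of these arrays known, from 19505 genes with a symbol on the array, and each of the 9 had a single feature. Jchain and Cd180 had already been seen among the largest differences between the groups. The differences between the groups are therefore a description, with no test for these 9 genes.

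The samples were cultures of CD8+ T cells that had been isolated from C57/BL6 mice, from both spleen and lymph nodes. The control group was 2 cultures activated for 3 days with beads carrying antibodies to CD3 and CD28, in medium with interleukin 2. The spermidine group was 2 cultures under the same conditions with 25 µM spermidine, a polyamine, in the medium. RNA was hybridised to Clariom S Mouse arrays, and a signal is a log2 value per feature. The labels call the arrays of a group biological replicates and name no animals, so errors and p-values cover the spread among these samples only, which may be technical. The sources used here do not give how the CD8+ cells were purified.

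B cells recognise antigen through a membrane immunoglobulin that signals through the paired chains CD79A and CD79B, products of Cd79a and Cd79b. CD22 and the adaptor BANK1 modulate that signal, while CD20 (Ms4a1) and the Toll-like protein RP105 (Cd180) are further surface proteins. The transcription factors EBF1 and PAX5 set up and hold B cell identity, and PAX5 is turned off when B cells become plasma cells. The J chain (Jchain) links immunoglobulin M and A units into the polymers that plasma cells secrete. CD8+ T cells are defined by CD3 and CD8 and do not use this receptor.

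The cultures carried the transcripts of T cells. Cd8a, a chain of the CD8 co-receptor, gave signals of 16.66 and 16.68 without spermidine and 16.58 and 16.57 with it. All 16 measured genes of the T cell list stood above background on all 4 arrays, and their mean signal ran from 13.44 to 13.53. Background here is the 95th percentile of 23 antigenomic features, whose probes match no genomic sequence. It was 6.29 and 6.34 for control and 6.39 and 6.38 for spermidine, and from 41.4% to 41.9% of gene features lay above it. The antigenomic features themselves ran from 2.09 to 7.29, with the highest signals in those of lowest GC content. The GC content of the gene probes is not known here, so a signal below background is at most a bound. Correlations between arrays over all gene features ran from 0.989 to 0.994. The 8 spike-in features for hybridisation, transcripts put into each sample as controls, were higher in the spermidine arrays by a mean of 0.439 (log2), and their part in the results was not tested.

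The sequences before the start sites of 3 members are shown because Jchain and Cd180 had the largest differences, and Cd79a holds a much-studied B cell promoter. They are the 250 bases before the start from RefSeq's annotation of GRCm38.p6, on the gene's strand, 5′ to 3′. Of the 9 members, 7 had an entry, and Cd79b and Ms4a1 had none. Cd180 and Ebf1 had 2 distinct stretches each, so that the 7 genes gave 9 stretches. Only 1 of the 2 stretches of Cd180 is shown. Capitals mark the E-box CAGGTG, a motif bound by E proteins such as E2A, read on either strand.
Jchain, chr5:88527898-88528147, minus strand: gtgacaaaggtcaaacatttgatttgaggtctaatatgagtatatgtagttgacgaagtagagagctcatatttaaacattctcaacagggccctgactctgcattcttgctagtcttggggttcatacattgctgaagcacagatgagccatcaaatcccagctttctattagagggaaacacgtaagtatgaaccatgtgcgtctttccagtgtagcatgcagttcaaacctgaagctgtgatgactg
Cd180, chr13:102693297-102693546, plus strand: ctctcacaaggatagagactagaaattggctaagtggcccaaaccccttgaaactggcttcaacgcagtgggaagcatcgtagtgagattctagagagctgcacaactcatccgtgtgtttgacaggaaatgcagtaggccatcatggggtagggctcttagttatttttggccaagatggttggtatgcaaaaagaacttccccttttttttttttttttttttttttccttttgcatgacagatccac
Cd79a, chr7:24897247-24897496, plus strand: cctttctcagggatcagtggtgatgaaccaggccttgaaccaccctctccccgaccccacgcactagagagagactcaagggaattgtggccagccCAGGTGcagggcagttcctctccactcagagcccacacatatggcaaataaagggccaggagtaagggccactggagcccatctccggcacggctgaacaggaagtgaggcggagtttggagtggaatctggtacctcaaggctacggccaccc

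The E-box lay 154 bases before the start of Cd79a and was in neither the Jchain nor the Cd180 stretch. It was also found in the stretches of Bank1 and Cd22, so that 3 of 9 distinct member stretches held it against 17.3% of 32536 distinct stretches of that length over all genes. The palindromic EBF consensus motif, read on both strands, was in 1 member stretch, that of Cd22, and in 0.787% of all stretches. Only full matches to this motif were counted. Whether the stretch of Cd79a or of another member holds an EBF site with other letters was not tested. The Cd22 match is shown in capitals in 30 bases at chr7:30879058-30879087, minus strand, of which the motif begins 49 bases before the start.
Cd22: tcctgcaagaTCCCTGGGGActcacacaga

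The octamer ATGCAAAT and the letters GGGANNTCC, sought for kappa-B, were in 0 member stretches and in 1.62% and 3.61% of all, on both strands. Kappa-B sites with other letters or spacing were not counted, so their absence was not tested. These matches are a description of letters and not of binding.

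All 9 genes had a higher mean signal in the spermidine arrays, from 0.09 (log2) for Pax5 to 1.92 for Jchain, with a median of 0.65. Over all 22206 gene features the median difference was -0.01, and 49.1% were above 0. In 6 of the 9 genes the groups did not overlap, with both treated arrays above the controls, which held for 18.3% of all features, and nothing is read from that count since the genes were chosen with this contrast known. The mean signal over the 9 genes was 6.12 and 5.84 in control and 6.91 and 6.64 with spermidine. In such bulk RNA, more cells of a type and more RNA per cell cannot be told apart.

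**Figure D1:**
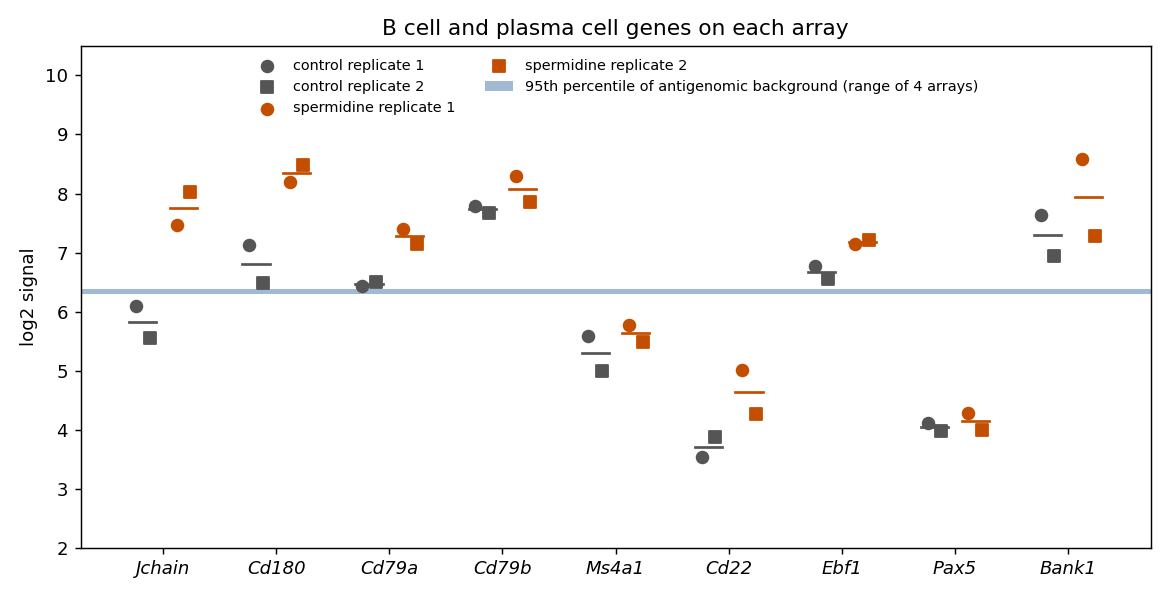
Log2 signal (y axis) of the 9 genes (x axis) on each of the 4 arrays; grey and orange points are control and spermidine arrays, circles replicate 1 and squares replicate 2, and short lines the group means. The blue band spans the background percentile of the 4 arrays: Jchain crosses it between the groups, 5 genes lie above it on every array, and Ms4a1, Cd22 and Pax5 lie below it on every array.

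Jchain, the polymer-linking chain of secreted antibody, had the largest difference. Its signal was 6.09 and 5.56 in control, below background in both, and 7.47 and 8.03 with spermidine, above it in both. The groups were 1.38 apart at their nearest arrays. The difference was 1.92 ± 0.29 (SE, n = 2 and 2), and 6 of the 22206 features had a larger one. With the control arrays set at their background, the signal was at least 2.70-fold higher with spermidine. This bound takes the mean of the log2 spermidine signals against the background percentile of the control arrays. The change from control replicate 1 to spermidine replicate 1 was 1.38 and that between the arrays numbered 2 was 2.47.

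The gene for RP105, Cd180, was above background on every array. Its signal was 7.13 and 6.48 in control and 8.19 and 8.49 with spermidine. The groups did not overlap, and their nearest arrays were 1.06 apart. The mean was 6.81 ± 0.46 (SD, n = 2) in control and 8.34 ± 0.21 (SD, n = 2) with spermidine, a 2.90-fold difference (log2 1.54 ± 0.28, SE), and 22 features had a larger one. RP105 needs its partner MD-1, the product of Ly86, to reach the cell surface. Ly86 gave 7.02 and 5.94 in control and 7.27 and 6.38 with spermidine, so its groups overlapped and the arrays numbered 1 were the higher ones in both groups. Its difference was 0.34 ± 0.41 (SE; adjusted p = 0.905, limma).

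The 2 signalling chains of the B cell receptor differed in size of difference. Cd79a gave 6.44 and 6.50 in the control arrays, just above background, and 7.40 and 7.15 in the spermidine arrays. The 2 control arrays were within 0.060 of each other and both spermidine arrays were higher, a 1.75-fold difference (log2 0.81 ± 0.23, SE). Its partner Cd79b gave 7.79 and 7.67 in control and 8.29 and 7.86 with spermidine. The groups of Cd79b were separated by only 0.072, less than the gap of 0.43 between the spermidine arrays, and overlapped after median centring of the arrays. Its difference was 0.35 ± 0.24 (SE).

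Of the 9 genes, the 2 modulators of that receptor had the widest gaps between the spermidine arrays. Cd22, an inhibitory lectin-like receptor, gave 3.53 and 3.87 in control and 5.01 and 4.26 with spermidine. Every one of these signals was below background, with 10 or 11 of the 23 antigenomic features dimmer, so the difference of 0.94 ± 0.30 (SE) is one of background signals and no measure of a fold. Bank1, an adaptor of B cell receptor signalling, gave 7.64 and 6.94 in control and 8.59 and 7.29 with spermidine, above background throughout. Its groups overlapped, since spermidine replicate 2 lay below control replicate 1. The difference of 0.65 ± 0.43 (SE) was smaller than the gap of 1.30 between the spermidine arrays, and became -0.0035 without spermidine replicate 1 and 1.30 without spermidine replicate 2.

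Ms4a1, which encodes the B cell surface protein CD20, lay below background on every array. It gave 5.58 and 5.0 in control and 5.78 and 5.48 with spermidine, and the groups overlapped. The difference was 0.34 ± 0.27 (SE), and without control replicate 2 it was 0.051.

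The 2 B lineage transcription factors stood apart from each other. Ebf1 gave 6.77 and 6.56 in control and 7.15 and 7.21 with spermidine. All 4 signals were above background, the groups did not overlap, and the difference of 0.52 ± 0.22 (SE) was a 1.43-fold one. Pax5 gave 4.11 and 3.98 in control and 4.28 and 4.0 with spermidine. These are background signals, as 10 or 11 of the 23 antigenomic features were dimmer on each array, and the groups overlapped with a difference of 0.09 ± 0.23 (SE). The relatives Ebf2, Ebf3, Ebf4, Pax2 and Pax8 were below background on all 4 arrays, with differences from -0.10 for Pax8 to 0.24 for Pax2.

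**Figure D2:**
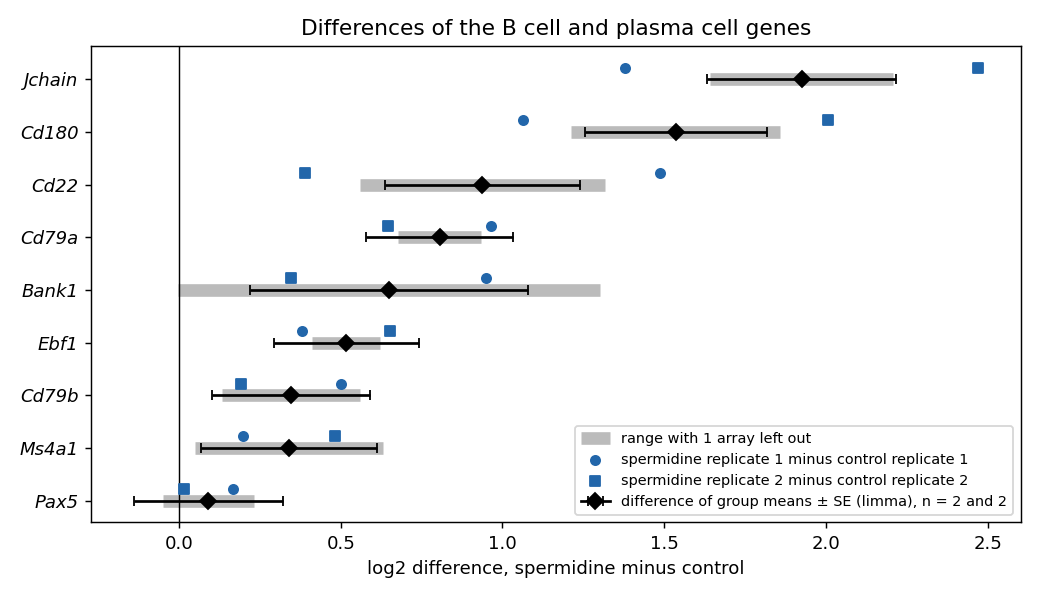
Log2 difference, spermidine minus control (x axis), of each gene (y axis); diamonds with bars are the fitted difference ± SE, grey bars the range when 1 of the 4 arrays is left out, and blue points the differences between arrays of the same number. Jchain and Cd180 lie at 1.92 and 1.54, and the grey bars of Bank1 and Pax5 reach 0 or below.

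In 5 of the 9 genes, Jchain, Cd180, Cd79a, Cd22 and Ebf1, the difference was larger than both gaps between arrays of a group, and spermidine was higher; this held for 12.6% of all features in that direction, and nothing is read from the count, for the same reason as above. With 1 array left out, Jchain stayed between 1.64 and 2.21, Cd180 between 1.21 and 1.86, Cd79a between 0.68 and 0.93 and Ebf1 between 0.41 and 0.62. Those of Cd22 ran from 0.56 to 1.32, of Cd79b from 0.13 to 0.56, of Ms4a1 from 0.051 to 0.63 and of Pax5 from -0.050 to 0.23.

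The genes did not share 1 order of arrays. Cd79b, Ms4a1, Pax5 and Bank1 were higher in replicate 1 than in replicate 2 in both groups. Jchain, Cd180 and Ebf1 were higher in control replicate 1 and in spermidine replicate 2, and Cd79a and Cd22 the other way round. The number on an array is a label only, since nothing in the labels says that arrays of one number share animals or a day.

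The features with the profile nearest to each gene were sought for the 4 genes whose arrays spanned at least 1 log2 unit. Nearness was the Euclidean distance over the 4 arrays, each gene centred on its own mean, among features with a symbol. The nearest to Jchain was Cd180, at a distance of 0.442, followed by the metalloprotease gene Adam8 (0.482) and Rgs2 (0.588), a regulator of G-protein signalling with signals below background. Only 2 features lay within 0.5 of Jchain. The distance is not scaled, and few features differ as much as Jchain, so nothing is read from this count. Nearest to Cd180 were Lilr4b, an inhibitory immunoglobulin-like receptor (0.354), the glycosyltransferase gene Gcnt1 (0.417) and Jchain, among 6 within 0.5. Jchain and Cd180 were both chosen with their large differences known, so nothing is read from their nearness.

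Bank1 was nearest to H2-DMb1, a chain of the protein that loads peptides on MHC class II, at 0.135. H2-DMb1 gave 7.85 and 7.06 in control and 8.66 and 7.53 with spermidine, with the arrays numbered 1 higher in each group as for Bank1. The next were Glra4 (0.162) and Ube2e2 (0.186), both below background, among 43 within 0.5. The nearest to Cd22 were Olfr128, Cyp2c65 and Homez, among 116 features within 0.5, and their signals were below background apart from 1 array of Homez. These profiles rest on 4 arrays each, and distances say nothing of shared control. The counts within 0.5 depend on how far the arrays of a gene span.

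The wider lists held 90 further names of the B lineage, of which 83 were measured; the 12 immunoglobulin constant region genes of a separate list are not analysed here. The 83 genes had a median difference of 0.08, against 0.65 for the 9 members and -0.01 for all features. In 27 of them the groups did not overlap and spermidine was higher (32.5%, against 18.3% of all features), and in 9 it was lower (10.8%, against 18.4%). Among the 35 that stood above background on all 4 arrays, 11 were higher without overlap (31.4%, against 19.2% of the 8800 such features). By limma with Benjamini-Hochberg adjustment over all 22206 features, 0 of the 83 had an adjusted p under 0.05, and 0 of all features did (percent called 0 in each direction). At an unadjusted p under 0.05 there were 10 higher and 1 lower among the 83, where 3.38% and 3.64% of all features passed. Among the 35 above background on all 4 arrays these were 4 higher and 0 lower, against 295 and 456 of the 8800 such features. The lists, like the members, were chosen with earlier results of these arrays known, so nothing is read from these counts.

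Genes of B cell receptor signalling had the highest median of these lists. Its 15 measured genes besides the members had a median of 0.28, and 11 of 15 were higher. Of the 15, 6 stood above background on all 4 arrays and 7 on none. The median is the difference of Blk, a gene below background on every array. The adaptor Dapp1 gave 9.99 and 10.08 in control and 10.49 and 10.89 with spermidine (0.65 ± 0.24, SE; adjusted p = 0.668, limma), with no overlap. The inhibitory adaptor Dok3 gave 6.09 and 5.85 in control, below background, and 6.78 and 6.45 with spermidine, above it (adjusted p = 0.671, limma), at least 1.23-fold higher. The phospholipase Plcg2 gave 6.81 and 6.99 against 7.77 and 7.07, a difference of 0.52 that was 0.17 without spermidine replicate 1. Others of the list were at background: the complement receptor Cr2 of mature B cells gave 3.27 and 3.06 in control and 3.27 and 2.71 with spermidine, and the kinase Blk and the adaptor Blnk were below background on all 4 arrays. The inhibitory Fc receptor Fcgr2b had the largest difference of the list, 1.10 ± 0.24 (SE; adjusted p = 0.637, limma), with signals from 3.37 to 4.76, below background on every array; it was named after its values were seen, as were Blk and Blnk.

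Of the surface protein list, 18 of 24 genes besides the members were higher, with a median of 0.16. Cd83, an activation marker that activated T cells also carry, gave 7.22 and 7.70 in control and 8.04 and 8.91 with spermidine (1.01 ± 0.33, SE; adjusted p = 0.637, limma), and 0.58 without spermidine replicate 2. Cd83 had 2 features on the array, and only the brighter is described. The glycoprotein gene Cd24a gave 7.35 and 7.21 against 7.95 and 8.05, with no overlap (0.72 ± 0.22, SE; adjusted p = 0.637, limma). The oxysterol receptor Gpr183 differed by 0.36, and by 0.16 without spermidine replicate 1. Further B cell surface or sensor genes, named after their values were seen, had signals above background with overlapping groups: the Fc epsilon receptor Fcer2a (0.08), the BAFF and APRIL receptor Tnfrsf13b (-0.02) and the RNA sensor Tlr7 (0.06). In all, 12 of the 24 stood above background on all 4 arrays, and the rest of these, also named late, went both ways. Cd37 was lower without overlap (-0.33), and Cd9 (0.35) and H2-Ob (0.20) were higher without overlap. The groups of H2-DMb2 (0.41), Tnfrsf13c (-0.20) and S1pr4 (0.02) overlapped.

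In the transcription factor list, 7 of 14 genes besides the members were higher and 7 lower, with a median of 0.14. Tcf4, an E protein that binds the E-box, gave 8.02 and 7.47 in control and 8.50 and 8.55 with spermidine (0.78 ± 0.26, SE; adjusted p = 0.637, limma). Tcf3, the gene of the E protein E2A, went the other way and was named after its values were seen. It gave 10.54 and 10.43 in control and 10.23 and 10.15 with spermidine, lower without overlap (-0.29 ± 0.22, SE). Zfp318, which takes part in immunoglobulin D expression, differed by 0.60 with overlapping groups and by 0.17 without control replicate 2. Bach2, a repressor used in B and T cells, differed by 0.33. The precursor list had a median of -0.03 over 9 genes, and the 2 named by the rule were Bst1 (-0.18) and the interleukin 7 receptor gene Il7r (0.05), which T cells express.

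The other plasma cell genes had smaller differences than Jchain, in both directions. Of the 21 measured besides Jchain, 13 were lower and 8 higher, with a median of -0.07. Creb3l2, a transcription factor of the secretory pathway, gave 5.85 and 6.19 in control, below background, and 7.07 and 7.41 with spermidine, above it, at least 1.90-fold higher (1.22 ± 0.25, SE; adjusted p = 0.637, limma). The endoplasmic reticulum genes Edem1 and Txndc5 differed by -0.32 and -0.39 from signals far above background, Txndc5 with overlapping groups and by -0.053 without control replicate 1.

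Of the plasma cell list, 10 of 22 genes stood above background on all 4 arrays and 8 on none, among these Mzb1, Tnfrsf17, Sdc1 and Prdm1. Mzb1, a chaperone of immunoglobulin assembly, gave 4.56 and 4.22 in control and 5.25 and 4.80 with spermidine, higher without overlap by 0.64 ± 0.26 (SE; adjusted p = 0.706, limma) and among the 10 at an unadjusted p under 0.05. The survival receptor gene Tnfrsf17 gave 3.21 and 3.09 against 2.96 and 3.11. The syndecan gene Sdc1 gave 4.51 and 5.42 against 5.04 and 5.29, with overlapping groups. Prdm1, the regulator of plasma cell and effector T cell fate, gave 4.62 and 5.43 in control and 4.24 and 4.19 with spermidine, the 1 gene lower at an unadjusted p under 0.05, and was named after its values were seen. Xbp1 and Irf4, which plasma cells share with activated T cells, were above background and differed by -0.21 and -0.19, both with overlapping groups.

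**Figure D3:**
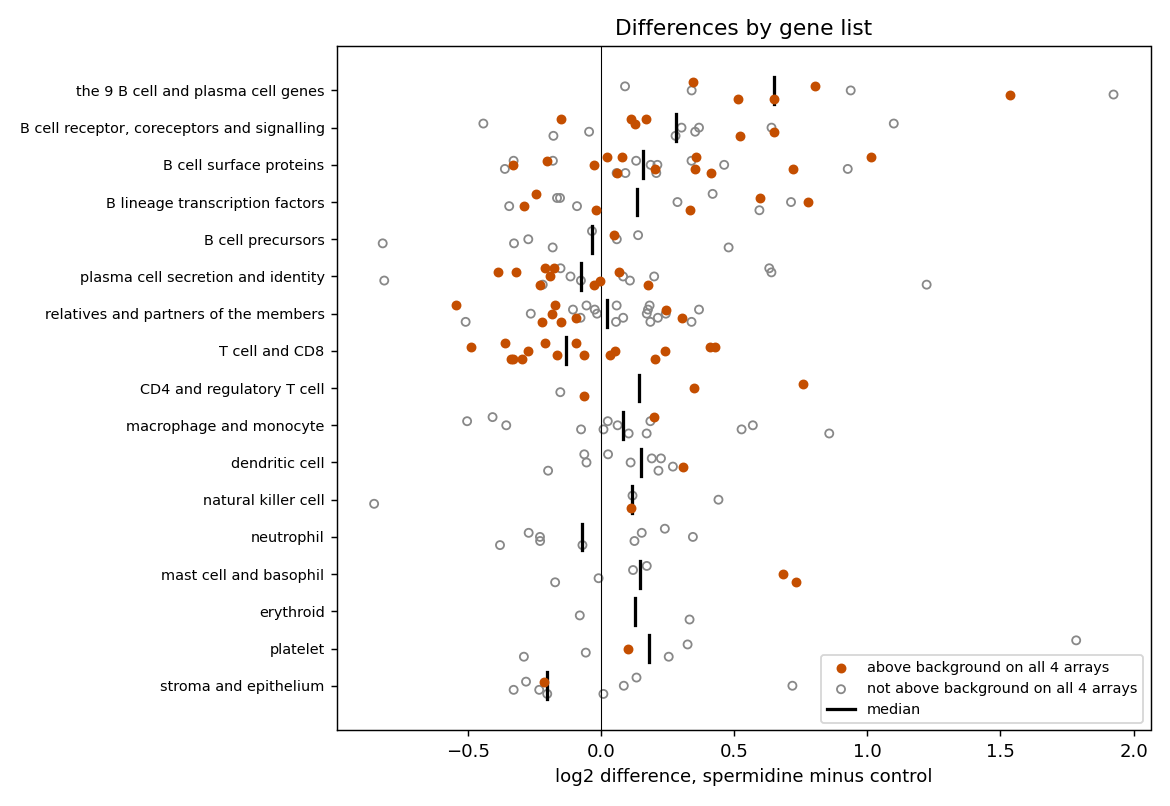
Log2 difference, spermidine minus control (x axis), of every measured gene of each list (y axis; the 9 genes are shown in the top row only); filled points stood above background on all 4 arrays and black bars are medians. The top row has a median of 0.65, the B cell receptor list 0.28 and the plasma cell list -0.07 without Jchain. These medians include genes at background.

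Relatives and partners of the members gave a median of 0.02 over 26 genes, with 13 higher and 13 lower. The family of Ms4a1 holds genes that T cells use: Ms4a4c gave 16.00 and 15.83 in control and 15.77 and 15.62 with spermidine, a difference of -0.22. Ms4a6d differed by -0.54 ± 0.27 (SE; adjusted p = 0.740, limma) and Ms4a6c by 0.25. Pigr, the receptor that carries J chain polymers across epithelia, was below background on all 4 arrays.

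Markers of other cells that a spleen or lymph node suspension can hold were mostly at background. Above background on all 4 arrays were 1 of 14 macrophage and monocyte genes, 1 of 10 dendritic cell, 1 of 4 natural killer cell, 0 of 9 neutrophil, 2 of 6 mast cell and basophil, 0 of 2 erythroid, 1 of 6 platelet and 1 of 9 stromal and epithelial genes. The defining genes Csf1r, Adgre1 and Ncr1 were below it on every array. Mean signals of the macrophage list were 4.01 and 4.03 in control and 4.08 and 4.15 with spermidine. The median differences of these 8 lists ran from -0.20 for stroma and epithelium to 0.18 for platelets, and that of the T cell list was -0.13. In the T cell list 6 of 16 genes were lower without overlap (37.5%, against 18.4% of all features) and 2 higher (12.5%, against 18.3%). Of the 8800 features above background on all 4 arrays, as these 16 genes were, 22.6% were lower without overlap and 19.2% higher. Cd8a differed by -0.09, and Cd3e by -0.33 with overlapping groups. Within them the largest statistics were those of Lyz2 (0.86), Fcgr1 (-0.50), Ccr9 (0.31), Itgax (0.27), Klre1 (-0.85), Ncr1 (0.44), S100a8 (0.35), Ngp (-0.38), Alas2 (0.33), Klf1 (-0.08), Ppbp (1.78), Treml1 (-0.29), Pdgfrb (0.72) and Krt8 (-0.33), all below background on every array except Ccr9, and of the mast cell genes Cpa3 (0.73) and Kit (0.69), above it. In the T cell lists they were Cd28 (0.43), Prf1 (-0.49), Zbtb7b (0.76) and Ikzf2 (0.35), and Cd4 gave 7.11 and 6.84 in control and 6.59 and 7.24 with spermidine. The part of other cells in the differences of the 9 genes was not tested.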

How the data were processed

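The deposited values are the authors' log2 signals, 1 per feature. The submitters' processing notes name RMA and Affymetrix Expression Console. Each array was made from 250 ng of RNA. RMA compresses differences of dim features. The log2 base was inferred from the values. Groups come from the sample titles. Of 28846 features, 6640 control features were set aside. Platform annotation gave 19572 of 22206 gene features 1 symbol, 0 several and 2634 none. A gene was represented by its brightest feature, and names were matched by symbol or RefSeq identifier.

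Spermidine and control were compared over all 22206 features in R 4.3.3 with limma 3.58.1 (lmFit, eBayes; 2 residual and 5.96 prior degrees of freedom). Tests were two-sided, with p-values adjusted by Benjamini-Hochberg and a threshold of 0.05. The fit was also run on simulated independent values with added differences. How often it finds differences of the sizes seen here is not given. With 2 arrays a group the smallest p an exact permutation test allows is 0.333, so it was left out. The number of arrays limits the precision.

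The members and lists were chosen with earlier results of these data known. Besides them, up to 3 genes per B lineage list with the largest limma statistics were named, if their higher group mean was above background. Of each other list up to 2 were named, and also the nearest profiles and defining markers. The EBF and PAX relatives, Pigr, Xbp1, Irf4 and the genes marked so above were named after their values were seen. Alternatives were other priors, array weights, renormalizations, filters, the replicate block, other background limits and leaving out each array. Promoter sequences are RefSeq's (GRCm38.p6); the sources used here do not give the build behind the array annotation.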

Additional observations from a re-analysis of the deposited data

How the results depend on the processing

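The median difference of the 9 genes ran from 0.41 to 0.93 with 1 array left out, against 0.65, and that of the 83 further B lineage genes from 0.062 to 0.124, against 0.08. With all 4 arrays each of the 9 genes kept its direction under every prior, weighting and scaling tried (Jchain 1.91 to 1.95, Pax5 0.075 to 0.091). The count of features passing an adjusted p of 0.05 was 0, and 1 with an intensity trend, median centring, cyclic loess, either filter on dim features, or the replicate block; it was 0 without any 1 array. At an unadjusted p under 0.05, 750 features were higher and 808 lower. The higher count was 460 among features at or above the median level and 414 among those above background, the lower count 1243 with the replicate block, and without 1 array the counts ran from 346 to 1061 and from 449 to 1263. Arrays of the same number deviated together with a correlation of 0.210 over all features, but with 2 pairs and no label that ties them the pairing is not established; with the replicate block the median of the 9 genes was 0.65. Of the 9 genes, 6 had a spermidine mean above background, also at the 90th or 99th percentile or against the highest antigenomic feature. In control these were 5, and 2 (Cd79b and Bank1) at the 99th percentile or the highest feature. There the control means of Cd180, Cd79a and Ebf1 fell below the limit and their folds would be bounds. The bounds given for Jchain, Dok3 and Creb3l2 used the 95th percentile and would be smaller or absent at those stricter limits. Against the 95th percentile of the control features named as negative, from 9.87 to 10.02, 0 genes were above in either group; that limit and the highest feature were chosen after seeing the data. Signals below background limit what can be said of Cd22, Ms4a1, Pax5 and the control level of Jchain, and under those stricter limits of the control levels of Cd180, Cd79a and Ebf1.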
